A study of Mus musculus with 6 samples.

Results

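The 10 genes described here carry glucose into the cell and through glycolysis to lactate. They are the glucose transporter gene Slc2a1, the hexokinase genes Hk1 and Hk2, the phosphofructokinase genes Pfkp and Pfkl, the aldolase gene Aldoa, the phosphoglycerate kinase gene Pgk1, the pyruvate kinase gene Pkm and the lactate dehydrogenase genes Ldha and Ldhb. They were chosen by symbol, and all 10 were found among the 46078 genes listed for each library. The RNA was from ovaries of C57BL/6 mice, 8 to 9 weeks of age, in 3 libraries labelled cyclophosphamide (CTX) and 3 control libraries. Cyclophosphamide, used against cancer, crosslinks DNA and damages ovarian follicles. How much was given, when, and at which stage of the cycle the ovaries were taken is not stated in the labels. Whether each library is a separate mouse is not stated either, so the p-values reflect the spread between these libraries alone, which may be technical.

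Glycolysis splits glucose into pyruvate in the cytosol, and lactate dehydrogenase turns pyruvate into lactate or back again. Hexokinase traps glucose in the cell, phosphofructokinase sets the pace of the pathway, and pyruvate kinase makes the pyruvate. In the ovary, oocytes take up little glucose themselves and live on pyruvate that granulosa cells supply, and mouse oocytes are rich in the LDHB form of lactate dehydrogenase. Corpora lutea are highly vascular and make progesterone at a high rate.

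No member passed the test between CTX and control. Hk1 and Ldha were the pair of members in which each CTX library lay above each control library, with means 1.18 and 1.25 times those of control. Ldhb had the largest fitted difference, with a mean 1.41 times that of control, but its groups overlapped. In the other members the groups overlapped too. Levels are RPKM, that is, reads divided by gene length and sequencing depth. The low values of short genes fit the length of all annotated exons together, so the order of genes and the isoenzyme shares depend on that annotation. For Pfkp that length is 13401 bases against 4145 in its longest coding transcript, and for Hk1 8532 against 4278. Limma was run on log2(RPKM + 1) over the 14535 genes that reached 1 RPKM in 3 or more libraries, with calls at an adjusted p under 0.05 (Benjamini-Hochberg). Limma called 0 of the 10 members, where it called 0% of all genes tested, and the adjusted p was 1 for each member. At an unadjusted p under 0.05 there were 0 members, against 3.45% of all genes tested (501 genes). The groups did not overlap with CTX above control in 2 of 10 members, against 3.32% of all genes tested, and with CTX below control in 0 of 10, against 5.5%.

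The libraries were scaled to a depth of about 17200000 to 22100000 reads in CTX and 15800000 to 16800000 reads in control, as estimated from the steps of low values. Members were well covered, with about 494 to 34340 reads per library by exon length. The ovary's own cell types were present in each library. All 10 luteal and all 10 oocyte markers reached an RPKM of 1 in each of the 6 libraries, as did 8 of 10 granulosa markers in CTX 1 and all 10 in the other libraries. The amounts of these markers divided the libraries across the groups. The summed RPKM of luteal markers was 9754, 3162 and 3031 in CTX 1, 2 and 3, and 7612, 8208 and 4110 in controls 1, 2 and 3. That of granulosa markers was 971.9, 3249 and 3221 in CTX 1, 2 and 3, and 1636, 1487 and 3651 in controls 1, 2 and 3. That of oocyte markers was 105, 386 and 375 in CTX 1, 2 and 3, and 168, 143 and 336 in controls 1, 2 and 3. CTX 1 and controls 1 and 2 thus had the higher luteal sums, and CTX 2 and 3 and control 3 the higher granulosa and oocyte sums. Of the granulosa markers, Foxl2 and Inhbb did not follow this division, and the others did. Foxl2 had 90.3, 91.1 and 90.9 RPKM in controls 1, 2 and 3. Inhbb had 92.6 and 80.3 RPKM in controls 1 and 2, against 69.0 and 71.1 in CTX 2 and 3. In whole ovaries, fewer cells of a type and less RNA per cell cannot be told apart.

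Adipocyte markers followed the same division, with summed RPKM of 7.03, 173 and 159 in CTX 1, 2 and 3, and 8.54, 5.46 and 129 in controls 1, 2 and 3. Erythroid markers summed to 21.7 to 75.4 RPKM in CTX and 18.4 to 27.2 in control, with 1 of 6 at 0 in CTX 2 and in control 1. Surface epithelium markers were the one list whose mean log2(RPKM + 1) did not overlap between groups, at 2.66, 3.07 and 3.05 in CTX 1, 2 and 3, and 3.43, 3.15 and 3.55 in controls 1, 2 and 3. Upk1b, Msln, Muc16 and Epcam, 4 of its 7 genes, were lower in each CTX library than in each control, as were 5.5% of all genes tested. Upk3b and Krt19 had lower CTX means with overlapping groups. Krt8 went the other way, with a mean of 19.2 RPKM in CTX and 16.3 in control. The part of this list in the member levels was not tested. Markers of skeletal muscle, a tissue rich in glycolytic enzymes, were low, with all 6 summing to 2.40 to 4.84 RPKM in CTX and 2.99 to 4.31 in control and 1 or 2 of them at 0 in each library. CTX 1 also stood apart in other measures. It had 13629 genes at an RPKM of 1 or more, against 14275 to 14511 in the other 5 libraries. Across genes, its deviations from the mean of all libraries fell with exon length (Spearman correlation −0.27), while the correlation was 0.0069 to 0.15 in the other libraries.

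By RPKM over the length of all exons, Pkm and Aldoa were the highest members, and Hk2, Slc2a1, Hk1 and Pfkp were the lowest. Over the 6 libraries the mean RPKM was 261 for Pkm, 249 for Aldoa, 189 for Ldhb, 89.9 for Ldha, 22.2 for Pfkl, 18.2 for Pgk1, 10.3 for Hk2, 10.1 for Slc2a1, 8.25 for Hk1 and 6.87 for Pfkp. Ldhb over Ldha, Ldha over Pfkl and Pgk1 over Hk2 held in all 6 libraries with no overlap of ranges. Slc2a1 was above Hk1 in 6 of 6 libraries, though their ranges overlapped. Pkm and Aldoa (5 of 6 libraries in that order), Aldoa and Ldhb (3 of 6), Pfkl and Pgk1 (4 of 6), Hk2 and Slc2a1 (3 of 6) and Hk1 and Pfkp (4 of 6) did not keep their order in every library.

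**Figure D1:**
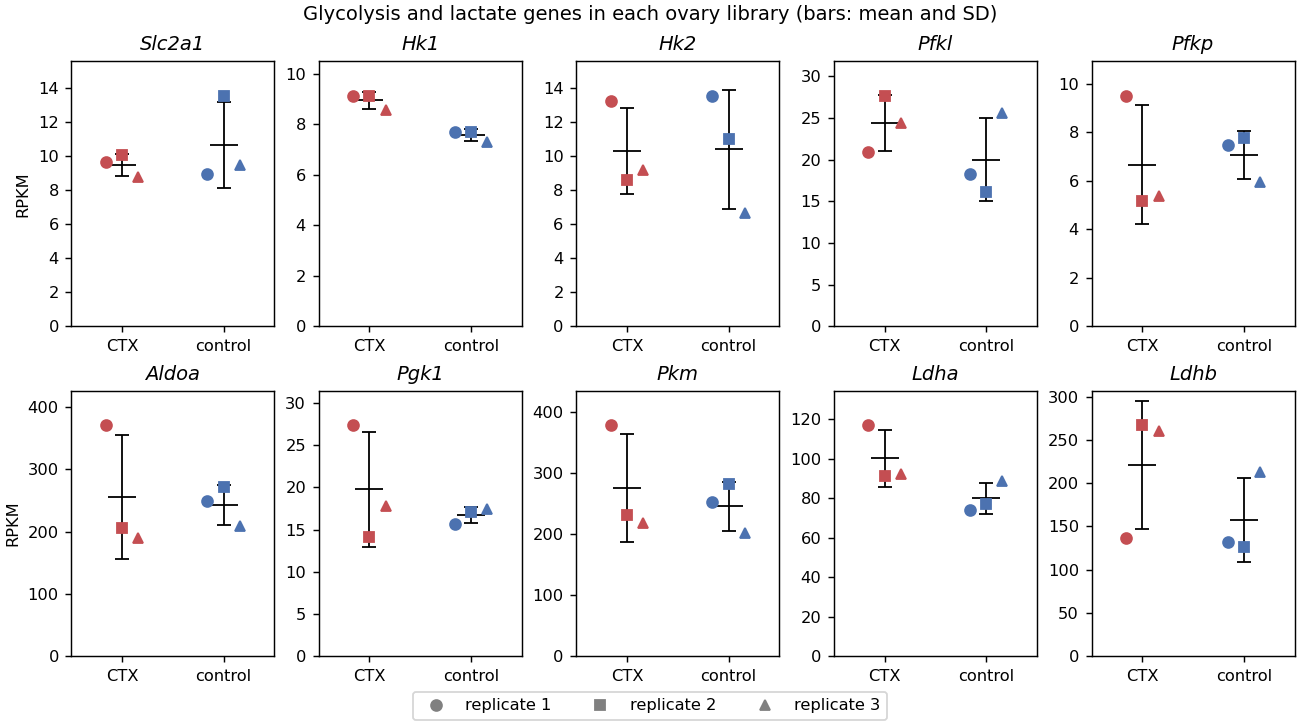
RPKM of each member (vertical axes from 0, linear, scaled per gene) in the 3 CTX libraries and the 3 control libraries, with 1 point per library, a horizontal mark for the mean and a bar for the SD. Hk1 and Ldha are the genes whose CTX points all lie above the control points, and in Aldoa, Pkm and Pgk1 the CTX 1 point stands above the other 5.

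Slc2a1, which encodes the glucose transporter GLUT1, had 9.62, 10.05 and 8.78 RPKM in CTX 1, 2 and 3, and 8.92, 13.5 and 9.48 RPKM in controls 1, 2 and 3. Control 2 was the one high library, and the groups overlapped. The fitted log2 fold change, CTX minus control, was −0.13 ± 0.17 (SE, 95% interval −0.55 to 0.28). Without control 2 it was 0.04, so its sign rests on that library.

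Hk1 encodes the hexokinase that most tissues express. It had 9.12, 9.13 and 8.57 RPKM in CTX 1, 2 and 3, and 7.69, 7.71 and 7.30 RPKM in controls 1, 2 and 3. Each CTX library lay above each control, and Hk1 varied little, with a smaller SD over the 6 libraries on the log2 scale than 83.4% of genes tested. Its log2 fold change was 0.21 ± 0.10 (SE, 95% interval −0.03 to 0.46), with an unadjusted p of 0.0751 and an adjusted p of 1 in limma. It stayed between 0.19 and 0.24 in the 17 alternative analyses, where the lowest adjusted p was 0.313. Of these, other filters, other variance models and the replicate number as a block cannot move a fitted log2 fold change. Hk1 shares 157 of 8532 exonic bases with Hk1os on the opposite strand.

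Hk2 encodes the inducible hexokinase of muscle, fat and fast-growing cells. It had 13.2, 8.56 and 9.16 RPKM in CTX 1, 2 and 3, and 13.5, 10.97 and 6.64 RPKM in controls 1, 2 and 3. The libraries with the higher luteal sums (CTX 1, controls 1 and 2) were the 3 highest, and the others the 3 lowest. The group means of 10.3 ± 2.51 in CTX and 10.4 ± 3.48 in control (SD, n = 3 each) were nearly equal, with a log2 fold change of 0.02 ± 0.28 (SE). Without CTX 1 it was −0.16, and without control 3 it was −0.24.

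Pfkl and Pfkp encode the liver and platelet types of phosphofructokinase, and they ran in opposite directions across the libraries. Pfkl had 20.95, 27.7 and 24.4 RPKM in CTX 1, 2 and 3, and 18.3, 16.1 and 25.6 RPKM in controls 1, 2 and 3. Pfkp had 9.51, 5.15 and 5.36 RPKM in CTX 1, 2 and 3, and 7.49, 7.75 and 5.95 RPKM in controls 1, 2 and 3. Pfkl was highest in CTX 2 and 3 and control 3, the libraries with the higher granulosa and oocyte sums, and Pfkp was lowest in those 3. The log2 fold changes were 0.29 ± 0.20 for Pfkl and −0.11 ± 0.24 for Pfkp (SE), and the groups overlapped in both. Leaving out 1 library moved that of Pfkl from 0.15 (without control 2) to 0.47 (without control 3), and that of Pfkp to −0.36 without CTX 1. With the mean level of the luteal markers as a covariate, they were 0.18 for Pfkl and 0.03 for Pfkp, with adjusted p-values of 0.502 and 0.896. Pfkp shares 748 of 13401 exonic bases with Pitrm1 on the opposite strand.

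Aldoa, whose aldolase splits the phosphorylated sugar, had 371, 207 and 189 RPKM in CTX 1, 2 and 3, and 248.5, 271 and 209 RPKM in controls 1, 2 and 3. CTX 1 was the highest library, and CTX 2 and 3 were below all 3 controls. Fitted over all libraries, the log2 fold change was 0.01 ± 0.28 (SE), and without CTX 1 it was −0.29 with an adjusted p of 0.350.

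Pgk1, which encodes the first ATP-making enzyme of the pathway, had 27.4, 14.1 and 17.8 RPKM in CTX 1, 2 and 3, and 15.6, 17.1 and 17.4 RPKM in controls 1, 2 and 3. CTX 1 again stood above the other libraries, and the controls lay close together. Its log2 fold change was 0.18 ± 0.23 (SE), against −0.07 without CTX 1.

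Pkm, which encodes pyruvate kinase of muscle and most other tissues, had 378.5, 231 and 219 RPKM in CTX 1, 2 and 3, and 252, 282 and 202 RPKM in controls 1, 2 and 3. CTX 1 was the highest and control 3 the lowest library. The log2 fold change was 0.14 ± 0.26 (SE), against −0.11 without CTX 1. The table gives 1 value per gene, so the PKM1 and PKM2 forms cannot be told apart.

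Ldha encodes the lactate dehydrogenase subunit of tissues that release lactate, and Ldhb the subunit of heart and other tissues that use it. The 250 bases before each RefSeq start of both genes are printed because these paralogs serve 1 reaction and yet ran differently across the libraries. They are read 5′ to 3′ on the strand of the gene (GRCm38.p6, RefSeq), with ACGTG and GCGTG on either strand in capitals, the cores of the site bound by the hypoxia factor HIF1.
Ldha first listed start, chr7:46845554-46845803, plus strand: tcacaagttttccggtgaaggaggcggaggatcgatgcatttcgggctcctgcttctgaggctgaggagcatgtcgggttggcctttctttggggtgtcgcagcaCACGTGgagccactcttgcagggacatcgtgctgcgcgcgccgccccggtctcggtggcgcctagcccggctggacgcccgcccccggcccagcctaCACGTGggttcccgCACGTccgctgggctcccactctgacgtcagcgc
Ldha second listed start, chr7:46846832-46847081, plus strand: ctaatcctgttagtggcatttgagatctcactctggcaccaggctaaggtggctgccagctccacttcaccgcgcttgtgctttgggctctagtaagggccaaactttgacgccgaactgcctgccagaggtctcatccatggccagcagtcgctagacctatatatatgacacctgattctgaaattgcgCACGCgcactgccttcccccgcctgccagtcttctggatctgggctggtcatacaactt
Ldhb, chr6:142507958-142508207, minus strand: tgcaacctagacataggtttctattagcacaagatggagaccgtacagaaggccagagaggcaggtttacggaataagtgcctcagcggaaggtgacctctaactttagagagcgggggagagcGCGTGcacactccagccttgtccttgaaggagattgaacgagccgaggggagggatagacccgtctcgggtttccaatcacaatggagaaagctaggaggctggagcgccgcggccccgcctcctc
The window of the first Ldha start held 5 matches to ACGTG, 4 of which lie in 2 copies of the palindrome CACGTG, where each copy counts on both strands. The window of the second start held 1 match to GCGTG, and that of Ldhb also 1. Of 32851 RefSeq promoter windows of this length, 16.6% held ACGTG, 28.2% held GCGTG and 6.02% held CACGTG, counting both strands. Over the 10 members, 15 windows were listed, of which 7 held ACGTG, 6 held GCGTG and 1 held CACGTG. Of the 3 Aldoa windows, 2 overlap and hold the same ACGTG match, so that site is counted in both. These matches describe letters in a window and not bound sites.

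Ldha had 117, 91.2 and 92.2 RPKM in CTX 1, 2 and 3, and 73.8, 76.9 and 88.7 RPKM in controls 1, 2 and 3. The groups did not overlap, but CTX 2 and 3 exceeded control 3 by little. The means were 100.1 ± 14.5 in CTX and 79.8 ± 7.89 in control (SD, n = 3 each). The log2 fold change was 0.32 ± 0.15 (SE, 95% interval −0.04 to 0.68), with an unadjusted p of 0.0728 and an adjusted p of 1 in limma. It was 0.20 without CTX 1 (adjusted p 0.366) and positive in all 17 alternatives (0.20 to 0.40), some of which, as for Hk1, cannot move it.

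Ldhb had 136, 267 and 260.5 RPKM in CTX 1, 2 and 3, and 132, 127 and 213 RPKM in controls 1, 2 and 3. CTX 2 and 3 were the highest libraries and control 3 came next, while CTX 1 and controls 1 and 2 lay together between 127 and 136. The oocyte and granulosa marker sums divided the libraries in the same way, 3 high and 3 low. So did those of the theca, smooth muscle, adipocyte and oviduct marker lists. The part of these cell types in the Ldhb levels was not tested beyond the fit with luteal markers. The means were 221 ± 73.7 in CTX and 157 ± 48.3 in control (SD, n = 3 each). A log2 fold change of 0.47 ± 0.33 (SE, 95% interval −0.34 to 1.27) had an unadjusted p of 0.207. Without CTX 1 it was 0.78 (adjusted p 0.261), and with the luteal markers as a covariate 0.25 (adjusted p 0.370). Ldhb varied more over the 6 libraries than 87.6% of genes tested.

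**Figure D2:**
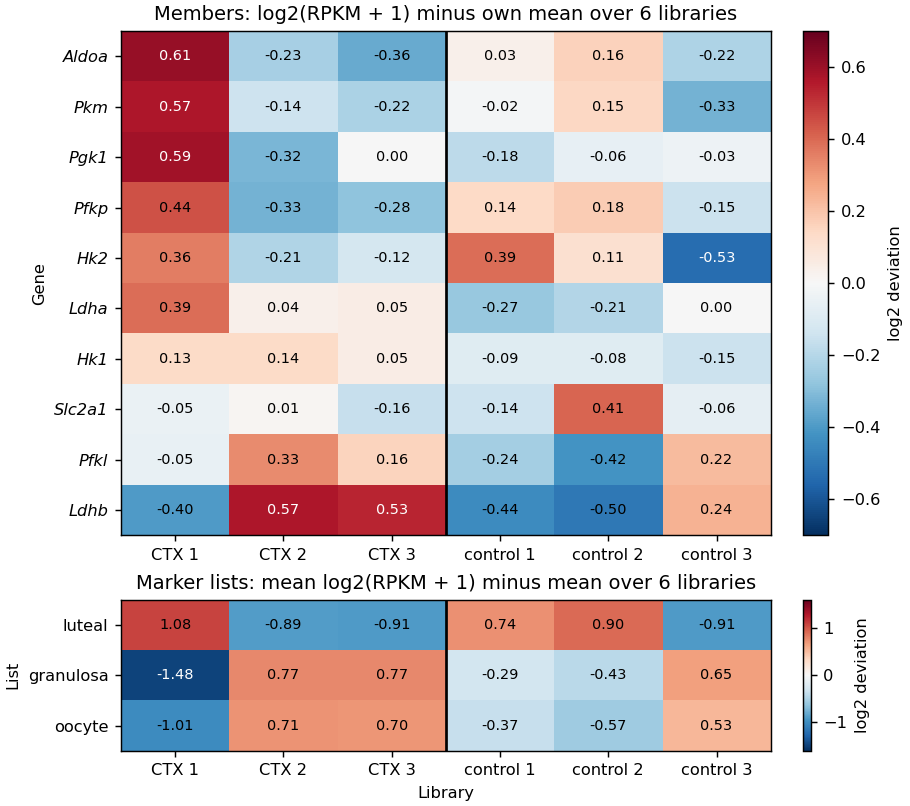
Deviation of each member's log2(RPKM + 1) from its own mean over the 6 libraries (upper block, rows are genes) and of 3 marker lists' mean log2 level (lower block), with CTX libraries left of the line and controls right of it; red is above and blue below the mean. CTX 1 is 0.57 to 0.61 above the mean in Aldoa, Pkm and Pgk1, and Ldhb is positive in CTX 2, CTX 3 and control 3 and negative in the others, as are the granulosa and oocyte lists.

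CTX 1 was the highest library for 5 of 10 members (Pfkp, Aldoa, Pgk1, Pkm and Ldha) and the lowest for 0. The median deviation of the members from their own means was 0.37 on the log2 scale in CTX 1, where the median over all genes tested was −0.11. In the other 5 libraries the median deviation of the members was between −0.11 and 0.03. The summed RPKM of the 10 members was 1092, 870.2 and 835 in CTX 1, 2 and 3, and 778, 830.3 and 785 in controls 1, 2 and 3. CTX 1 also had the highest luteal and the lowest granulosa and oocyte sums, and the part of tissue content, or of the length trend, in its member levels was not tested.

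Of the 10 members 8 had a positive log2 fold change, against 48.8% of all genes tested, and their median was 0.16 against −0.01 over all genes. The count fell most without CTX 1. Then 4 of 10 were positive with a median of −0.09, where the median over all genes was 0.03. That fit sets CTX 2 and 3, both with lower luteal sums, against controls of which 1 and 2 had higher ones. Group and tissue content therefore cannot be told apart in it, here or in the values given for single genes. Results without CTX 1 rest on CTX 2 and 3, the most alike pair of libraries, with a median chi-square per gene of 1.52 on approximate reads. Counting noise alone would give 0.455, and CTX 1 against CTX 2 and 3 gave 33.1 and 30.5. Without control 3, 6 of 10 were positive, and after quantile normalization 7 of 10. With the luteal covariate, and without CTX 2, CTX 3 or control 2, 9 of 10 were positive. Hk1, Pfkl, Ldha and Ldhb were positive in all 17 alternatives, and Aldoa, Pkm, Pgk1 and Hk2 turned negative in at least 1. Other filters, other variance models and the replicate number as a block cannot turn a sign.

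**Figure D3:**
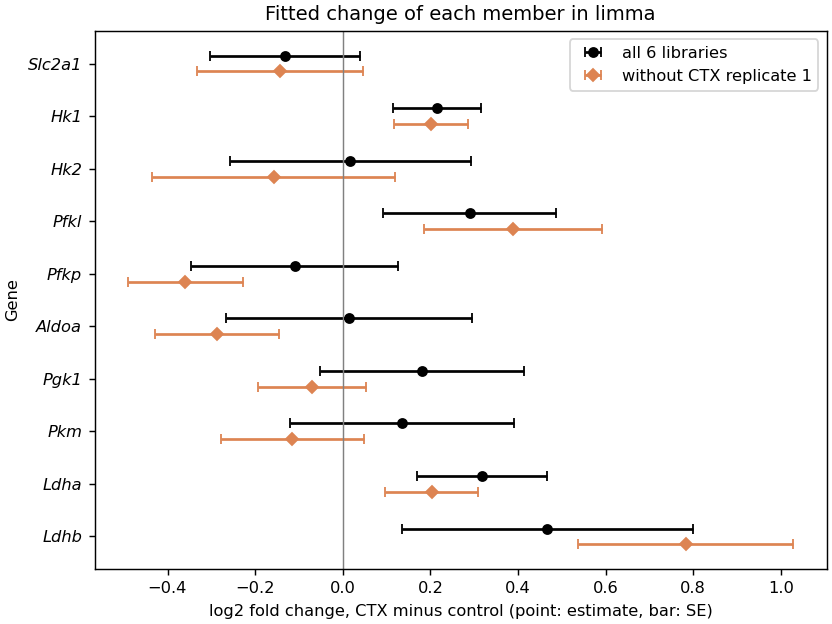
Fitted log2 fold change of each member in limma, CTX minus control (horizontal axis), with its SE as a bar, from all 6 libraries (black circles) and without CTX replicate 1 (orange diamonds). Without CTX 1, Hk2, Aldoa, Pgk1 and Pkm move below 0 and Ldhb moves up to 0.78, while Hk1 stays near 0.2.

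Isoenzyme shares, which do not depend on how libraries are scaled, did not separate the groups. Ldha made up 46.2, 25.5 and 26.1% of the summed Ldha and Ldhb RPKM in CTX 1, 2 and 3, and 35.8, 37.8 and 29.4% in controls 1, 2 and 3. CTX 1 had the highest share and CTX 2 and 3 the lowest, so the controls lay inside the CTX range. The means were 32.6 ± 11.7% in CTX and 34.3 ± 4.37% in control (SD, n = 3 each), a difference of −1.74 percentage points (exact two-sided permutation p 0.8). Without CTX 1 the difference was −8.52 points, and without CTX 2 it was 1.82 points.

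For hexokinase, Hk2 made up 59.1, 48.4 and 51.7% of the Hk1 and Hk2 sum in CTX 1, 2 and 3, and 63.7, 58.7 and 47.6% in controls 1, 2 and 3. Pfkp made up 31.2, 15.7 and 18.0% of the Pfkp and Pfkl sum in CTX 1, 2 and 3, and 29.1, 32.5 and 18.9% in controls 1, 2 and 3. Pfkm, a phosphofructokinase gene outside the members, is not in this sum, though its mean RPKM was above that of Pfkl and Pfkp. It averaged 28.0 ± 0.917 RPKM in CTX and 28.2 ± 2.04 in control (SD, n = 3 each). In both pairs CTX 1 and controls 1 and 2 had the 3 highest shares. Differences between group means were −3.65 points for Hk2 (exact permutation p 0.7) and −5.18 points for Pfkp (exact permutation p 0.4). With 1 library left out, the Hk2 difference was −8.18 points without control 3, −6.67 without CTX 1 and −0.13 without control 1. The Pfkp difference was −9.97 points without CTX 1, −9.16 without control 3 and −2.21 without CTX 2. Adjusted over the 3 pairs, each exact permutation p was 0.8, and 3 libraries against 3 cannot give a p under 0.1.

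**Figure D4:**
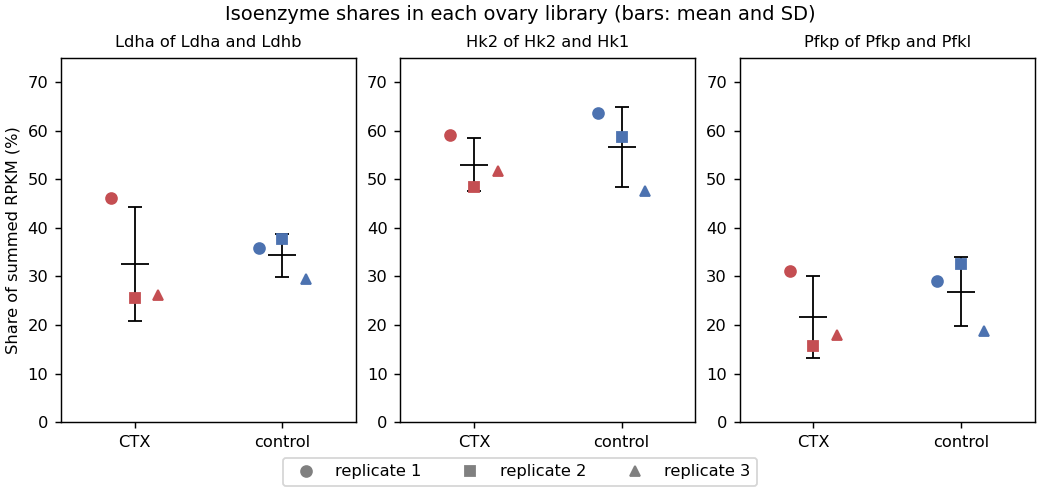
Share of the first-named gene in the summed RPKM of each isoenzyme pair (percent, vertical axis from 0), with 1 point per library, a horizontal mark for the mean and a bar for the SD, CTX left and control right. The groups overlap in all 3 pairs, and in each pair CTX 1 lies above CTX 2 and CTX 3.

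Beyond the members, 62 further genes of glucose use were examined, covering the other glycolytic enzymes, sugar and lactate transporters, the kinases and phosphatases that switch the pathway, pyruvate entry into mitochondria and the reverse pathway. Of these 46 passed the filter on low values, and 0 passed the test as higher and 0 as lower in limma, with 0 at an unadjusted p under 0.05, against 3.45% of all genes tested. Among the 46, 24 had positive and 22 negative log2 fold changes, between −0.47 for Ldhd and 0.40 for Bpgm, with a median of 0.02. The 16 genes under the filter had mean levels of 0.005 to 0.693 RPKM, among them the testis genes Pgk2 and Ldhc.

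Tpi1, Gpi1 and Pgam1 were the most abundant of the other glycolytic enzyme genes. Tpi1 (triosephosphate isomerase) averaged 122 ± 21.8 RPKM in CTX and 109.7 ± 5.91 in control, and Gpi1 (glucose phosphate isomerase) 76.5 ± 32.1 and 79.3 ± 15.2 in CTX and control (SD, n = 3 each here and below). Pgam1, a phosphoglycerate mutase gene, averaged 40.5 ± 17.3 RPKM in CTX and 41.2 ± 7.54 in control. In Gpi1 and Pgam1 CTX 1 was the highest library, with 114 and 59.9 RPKM, and CTX 2 had 58.3 and 26.5 RPKM. Without CTX 1 the log2 fold change was −0.43 for Gpi1 (adjusted p 0.308) and −0.40 for Pgam1 (adjusted p 0.352) in limma.

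Eno1, the enolase gene, had the smallest unadjusted p of the 46 (0.0917). It had 50.7, 38.8 and 38.9 RPKM in CTX 1, 2 and 3, and 30.8, 34.4 and 38.1 RPKM in controls 1, 2 and 3. Each CTX library lay above each control, by under 1 RPKM for CTX 2 and 3 over control 3. The log2 fold change was 0.30 ± 0.15 (SE), and 0.17 without CTX 1 (adjusted p 0.422). Eno1 was the one gene of the 46 whose groups did not overlap, where 3.32% of all genes tested had CTX above control and 5.5% had CTX below. Near-identical pseudogenes of Eno1 held 2.70 to 4.36 RPKM per library, more than the gap between CTX 2 and 3 and control 3. Pdk3, a kinase gene that turns off pyruvate dehydrogenase, had the next smallest p (0.163), with 11.4 ± 0.898 RPKM in CTX and 9.68 ± 1.42 in control.

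Among transporters, Bsg, which encodes the chaperone basigin of the lactate transporters, averaged 256 ± 40.7 RPKM in CTX and 248.3 ± 9.39 in control. Slc16a1, which encodes the lactate and pyruvate transporter MCT1, averaged 18.3 ± 2.57 RPKM in CTX and 17.5 ± 2.51 in control. Hif1a, a transcription factor gene whose product drives glycolytic genes in low oxygen, averaged 37.7 ± 2.20 RPKM in CTX and 40.4 ± 0.171 in control. Pdk2, another pyruvate dehydrogenase kinase gene, averaged 15.7 ± 4.59 RPKM in CTX and 14.5 ± 3.98 in control. The groups overlapped in each of these 4 genes. In Hif1a the overlap was narrow, with CTX 3 (40.19 RPKM) just above control 2 (40.16) and the other CTX libraries at 36.5 and 36.3. Its log2 fold change was −0.10 ± 0.10 (SE), with an unadjusted p of 0.351 in limma.

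The groups also overlapped in the named genes of pyruvate entry and of the reverse pathway. Pdhb, a pyruvate dehydrogenase subunit gene, averaged 89.7 ± 15.04 RPKM in CTX and 86.8 ± 9.05 in control. Dld, the shared dihydrolipoamide dehydrogenase gene, averaged 85.1 ± 12.2 RPKM in CTX and 86.1 ± 6.33 in control. Pck2 (mitochondrial phosphoenolpyruvate carboxykinase) averaged 31.7 ± 6.11 RPKM in CTX and 31.5 ± 1.37 in control, and G6pc3 (a widely expressed glucose-6-phosphatase) 21.8 ± 3.19 and 20.6 ± 1.09 RPKM in CTX and control.

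Genes whose profile over the 6 libraries lay nearest to that of 4 members were sought among 9559 other genes with a mean RPKM of at least 5. Likeness was the root-mean-square difference of log2(RPKM + 1) after centring each profile. For Ldha the nearest was Eno1 (0.0306, where the median gene had 0.294), followed by 2310009B15Rik and the translation elongation factor gene Eef1b2. For Ldhb they were the heparan sulfatase gene Sulf2 (0.0532, median gene 0.460), Arhgap10 and Bpgm (0.0610), which encodes bisphosphoglycerate mutase. Bpgm had 12.1, 22.0 and 21.7 RPKM in CTX 1, 2 and 3, and 11.2, 11.2 and 18.9 RPKM in controls 1, 2 and 3.

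For Pfkp the nearest genes were Tlcd1, the acyl-CoA synthetase gene Acsl5 and Gskip (0.0286, 0.0288 and 0.0352, median gene 0.347). For Slc2a1 they were Trp53i11, Krba1 and the clock gene Per1 (0.0707, 0.0883 and 0.0974, median gene 0.281), which share its high value in control 2. With 6 libraries many genes come close by this measure, so it describes the profiles only.

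Near-identical pseudogenes limit what the levels of some genes mean, since the labels do not say how reads with several matches were counted. Of the members, Pgk1 had 4 annotated pseudogenes with at least 95% identity over 100 bases, Ldha 5, Pkm 1 and Ldhb 1, and the other 6 members had 0. These covered 68.8% of the longest coding transcript of Pgk1, 55.0% of that of Ldha, 65.5% of Pkm and 76.8% of Ldhb. The pseudogenes listed in the tables summed to at most 1.08, 0.14, 4.44 and 1.03 RPKM in any library for Pgk1, Ldha, Pkm and Ldhb. Gapdh, named after its values were seen, had 5.21 ± 0.225 RPKM in CTX and 4.78 ± 0.423 in control, far under its neighbours in the pathway. It had 77 such pseudogenes covering 86.6% of its transcript, which together held 17.99 to 31.6 RPKM per library, so its value is uncertain. Of the other enzyme genes, Eno1 had 2 such pseudogenes covering 64.4% of its transcript, Tpi1 had 1 covering 19.3% and Pgam1 had 1 covering 43.1%. Those of Tpi1 and Pgam1 held at most 8.54 and 5.48 RPKM in any library. Gpi1 and Pdhb had 1 each, at under 1 RPKM. Pkm shares 767 of 5001 exonic bases with Gm49759 on the same strand, and Slc2a1 105 of 3506 with the antisense gene Gm12868. Of the pathway genes, Gpi1 shares 741 of 6452 exonic bases with Gm26762 on the opposite strand, and Hif1a 148 of 5896 with Gm49321 on the same strand.

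In mm10 the protein-coding genes of the first steps lie on chromosome 4 (Slc2a1, 119108711 to 119137983), chromosome 10 (Hk1, 62268855 to 62379908, and Pfkl, 77986947 to 78010083), chromosome 6 (Hk2, 82725025 to 82774454) and chromosome 13 (Pfkp, 6579768 to 6648777). Aldoa lies on chromosome 7 (126795234 to 126800751), Pgk1 on chromosome X (106187100 to 106203699) and Pkm on chromosome 9 (59656368 to 59679375). Ldha lies on chromosome 7 (46841475 to 46855627) and Ldhb on chromosome 6 (142490249 to 142507957). Each value covers the whole gene, so none can be assigned to an exon or UTR.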

How the data were processed

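For each library the authors deposited gene symbols, Ensembl identifiers and 1 value per gene, taken here as RPKM because no header names a unit. The submitters' processing notes list Bowtie 0.12.2 and mm10, and no source used here states the counter, annotation, filters or use of strand. In genes of at most 1000 exonic bases, 97.7 to 98.0% of low values were whole reads within 0.2, and the size of this step gave the depth. Rounding to 2 decimals hides the reads of long genes, and no counting interval was computed. Exon lengths came from GENCODE M21 (GRCm38, as mm10), which held 98.0% of identifiers.

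Limma 3.58.1 (R 4.3.3) compared CTX with control on log2(RPKM + 1), which understates changes of low genes, with a mean-variance trend and no covariate, fitted over all genes. It was tried on simulated data, at the spread of these libraries and at a lower one. The pass was set at the lower spread alone, so passing does not give the power here. Recovery at the spread of these libraries is not reported here. Tests are two-sided. Pseudogenes were found with blastn 2.17.0. The members, gene and marker lists and the naming rule were chosen with earlier results of these data known. By that rule the text names all members, the 3 most abundant other enzymes, the 2 most abundant genes of each other pathway list, and the 2 genes of those lists with the smallest p. Other genes named are extremes of a count, examples, the nearest profiles, or Pfkm, the phosphofructokinase gene left out of its pair. Alternatives were 3 scalings, 2 filters, 2 pseudocounts, 2 variance models, the replicate number as a block, the luteal markers as a covariate, and each library left out. The filters, variance models and block can change the p-value of a gene but not its log2 fold change.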

Additional observations from a re-analysis of the deposited data

How the results depend on the processing

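None of the 17 alternatives called a member or a pathway gene chosen by the naming rule. Over all genes limma called 0 higher and 0 lower, but 4 higher and 13 lower without a filter on low values, and 0 higher and 2 lower with the luteal covariate. Leaving out 1 library gave 0 to 2 higher and 0 to 3 lower, with the 2 and 3 calls coming without CTX 1. In the fit without CTX 1, group and tissue content cannot be told apart. The replicate number as a block gave 0 calls and changed no call. Deviations of same-numbered libraries correlated at 0.40, −0.54 and 0.60 for numbers 1, 2 and 3. Libraries of unlike number correlated as strongly, such as CTX 1 and control 2 at 0.61. Whether the numbers pair the samples cannot be told from these values, and the labels do not say. With the block, the balanced design fixes the share differences at the same −1.74, −3.65 and −5.18 points for Ldha, Hk2 and Pfkp. Only the p can change, and an exact sign-flip test within replicate numbers gave 0.75, 0.5 and 0.75. With 3 replicate numbers the sign-flip test cannot give a p under 0.05, whatever the shares. Signs turned as follows, all in genes whose log2 fold change lay within 1 SE of 0, and the cause was not tested. Under trimmed-mean and median-of-ratios scaling the log2 fold change was 0.0067 and 0.0043 for Dld and 0.027 and 0.024 for Pck2. Under quantile normalization it was −0.017 for Aldoa, −0.0059 for Bsg and −0.033 for Pdhb. With the luteal covariate it was 0.033 for Pfkp, 0.086 for Gpi1, 0.10 for Pgam1, −0.0093 for Slc16a1, −0.065 for Pdk2, 0.046 for Dld and 0.052 for Pck2. With each library left out in turn, it ranged from −0.24 to 0.22 for Hk2, −0.29 to 0.20 for Aldoa, −0.070 to 0.38 for Pgk1, −0.11 to 0.28 for Pkm, −0.36 to 0.027 for Pfkp and −0.24 to 0.038 for Slc2a1. It ranged from −0.00033 to 0.24 for Tpi1, −0.43 to 0.057 for Gpi1, −0.40 to 0.17 for Pgam1, −0.092 to 0.11 for Bsg, −0.060 to 0.17 for Slc16a1, −0.074 to 0.34 for Pdk2, −0.091 to 0.13 for Pdhb, −0.14 to 0.057 for Dld, −0.15 to 0.078 for Pck2 and −0.039 to 0.15 for G6pc3. The Ldha share differed by −8.52 to 1.82 points. Depth limits no member, with at least 494 reads per library; having 3 libraries a group limits the precision.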
